A study of Mus musculus with 32 samples.

Results

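The tripartite motif (TRIM) family of ubiquitin ligases was followed in mouse bone marrow-derived macrophages before and after induced loss of the exonuclease TREX1. Members were taken by name, as protein-coding genes called Trim with a number and an optional letter that reached at least 10 counts in at least 2 libraries. Of 54281 identifiers in the count table, 68 were such Trim genes, and 46 of them reached the minimum. The other 22 did not: 13 were at 0 in all 32 libraries, the remaining 9 reached at most 12 counts in any library, and Trim38, Trim10 and Trim43a were among these 9.

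Cells came from Trex1 FL/FL mice carrying R26-CreERT2, in which a tamoxifen-inducible Cre removes both loxP-flanked Trex1 alleles, and from Trex1 WT/FL controls, which by the study's methods carry the same Cre and keep 1 unflanked allele. Both genotypes were left untreated or exposed to 4-hydroxytamoxifen (4-OHT, 2 µg/ml for 22 h) and harvested 1, 2, 3 or 4 days after its end, which gave 16 groups of 2 libraries each. The Cre sits in the ubiquitous Rosa26 locus, and the controls become heterozygous for Trex1 under 4-OHT. The labels name no animal, culture or batch, so that the spread between the 2 libraries of a group may be technical, and p-values measure only that spread. In bulk RNA, fewer cells of a kind and less RNA per cell cannot be told apart.

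TRIM proteins combine a RING domain, which recruits a ubiquitin-loaded E2 enzyme, with B-box and coiled-coil domains and a variable C-terminal domain that selects the target. In macrophages many of them attach ubiquitin chains to nucleic acid sensors, their adaptors or the kinases downstream, others bind retroviral capsids, and a nuclear group acts on chromatin. A number of these genes are themselves induced by type I interferon through STAT and IRF factors, which bind the interferon-stimulated response element (ISRE) in promoters.

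Libraries held 35120505 to 63760884 estimated counts. Trex1 checked the labels of the FL/FL 4-OHT arm: its 8 libraries held 0 to 14 counts, against 758 to 3622 in WT/FL 4-OHT, 1811 to 5746 in untreated FL/FL and 1174 to 6553 in untreated WT/FL cells. The untreated arms overlapped, so that Trex1 could not check the genotype of untreated libraries. Macrophage markers were high in all 4 arms, the summed level of 7 genes lying between 15024 and 47900 CPM (read counts scaled to a common library size), whereas the 7 neutrophil and progenitor markers summed to 4.65 to 18.8 CPM and the 3 T cell markers were each at or below 3 counts per library in every arm. B cell markers summed to at most 0.173 CPM, mast cell and basophil markers to 0.771, stromal markers to 2.27 and dendritic cell markers to 2.47 CPM. Their part in the results was not tested. The 2 untreated FL/FL libraries of day 1 stood apart from each other, with a chi-square of 47.0 per degree of freedom between their counts against at most 19.5 in any other group. Replicate 2 of that group held the lowest level of all 32 libraries for 11 of the 46 members, Trim14 among them (20.1 CPM against 26.9 CPM in replicate 1), and replicate 1 for 1 member.

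Promoter stretches are shown first because several members called higher after Trex1 deletion hold the same short core, as does 1 close relative that was not called. That core also stood in Trim2, a member called lower, whose stretch is not shown. RefSeq promoter windows of 300 bases (250 before to 50 after each start site, build GRCm38.p6) were held for 35 of the 46 members, with 47 windows in all, and were searched on both strands for the ISRE core GAAANNGAAA. In the stretches below, each written 5′ to 3′ on the gene's strand with 30 bases on each side where the window allowed, capitals mark the ISRE core, which reads as TTTC, any 2 bases and TTTC where it lies on the opposite strand. In the last stretch they mark the core TTCNNNGAA of a gamma-activated site (GAS), to which STAT dimers bind.
Trim21 (chr7:102565433-102565499, minus strand): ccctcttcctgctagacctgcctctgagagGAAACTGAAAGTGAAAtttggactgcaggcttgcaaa
Trim34a (chr7:104244437-104244506, plus strand): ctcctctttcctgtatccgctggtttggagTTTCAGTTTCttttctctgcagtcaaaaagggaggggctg
Trim26 (chr17:36836956-36837031, plus strand): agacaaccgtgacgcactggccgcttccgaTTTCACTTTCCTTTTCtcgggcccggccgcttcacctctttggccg
Trim30a (chr7:104446084-104446153, minus strand): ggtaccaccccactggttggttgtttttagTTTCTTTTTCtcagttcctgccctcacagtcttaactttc
Trim30a (chr7:104465190-104465259, minus strand): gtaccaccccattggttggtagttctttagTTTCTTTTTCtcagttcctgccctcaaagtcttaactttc
Trim30d (chr7:104507851-104507920, minus strand): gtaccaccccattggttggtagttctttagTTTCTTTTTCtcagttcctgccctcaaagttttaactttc
Trim12a (chr7:104315446-104315515, minus strand): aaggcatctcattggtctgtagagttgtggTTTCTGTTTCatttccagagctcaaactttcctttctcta
Trim12c (chr7:104353339-104353408, minus strand): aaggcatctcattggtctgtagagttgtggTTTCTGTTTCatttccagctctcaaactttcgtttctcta
Trim5 (chr7:104288116-104288185, minus strand): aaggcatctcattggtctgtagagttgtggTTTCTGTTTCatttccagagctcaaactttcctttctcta
Trim30c (chr7:104400802-104400870, minus strand): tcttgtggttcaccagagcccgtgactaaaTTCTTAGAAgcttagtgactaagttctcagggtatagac

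An ISRE core stood in 9 of the 35 members with a window (25.7%), against 1079 of all 27025 genes with a window (3.99%). Of the 13 members called higher in Trex1-deleted cells on any of days 2 to 4 (below), 11 had a window and 7 of these held the core: Trim12a, Trim12c, Trim21, Trim26, Trim30a, Trim30d and Trim34a. The core was found in 1 of 4 windowed members called lower (Trim2) and in 1 of 20 windowed members called in neither direction (Trim5). None of the 12 matches overlapped a GAS or kappaB match. Several of these windows are near copies and do not count as separate observations. Around the core, Trim12a and Trim5 were identical over 70 of 70 bases, Trim12c differed from both at 3 of 70, and Trim30d differed from the upstream Trim30a window at 1 of 70. In Trim21 and in Trim26, a pair of cores overlapped each other. Trim30b, which had the largest fold change of the members called on day 4, held no ISRE and no GAS core in its window, nor did Trim25. A GAS core was present in 3 of the 35 members (Trim30c, Trim45 and Trim46), which is 8.57% against 9.55% of all genes, and the kappaB core GGGNNNNNCC in 65.7% against 53.5%. A match is a description of letters and not of a bound site.

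The levels of the members spanned from Trim54, whose median was 0, to Trim25 when set per exon length. Trim25, the ligase that attaches lysine 63-linked chains to the RNA sensor RIG-I, was the most abundant, with a median of 71.8 CPM per kb of exon over the 32 libraries. Trim8, which acts on the kinase TAK1, followed at 36.1 and Trim30a, which restrains TAB2/TAB3 signalling, at 35.4 CPM per kb. These latter values were closer to each other than the range of either across libraries. At the other end, Trim9, Trim17, Trim29, Trim34b and Trim54 were at 0 counts in at least 1 library, and 40 of the 46 members held 10 or more counts in every library.

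**Figure D1:**
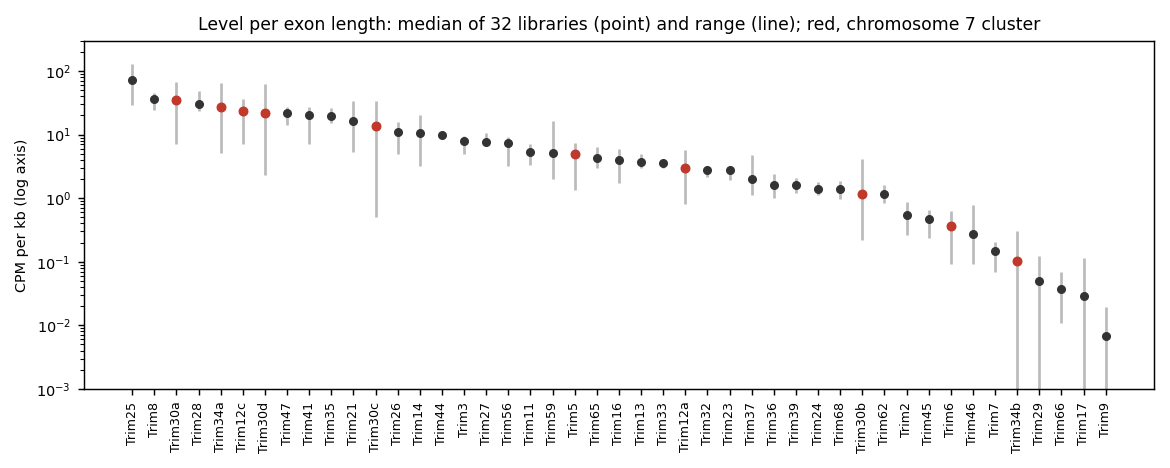
Level of each member in CPM per kb of exon on a log axis, ordered by the median over 32 libraries (points), with lines from the lowest to the highest library that run off the lower end where a library was at 0. Trim54, with a median of 0, is not drawn; the red points are the 10 genes of the chromosome 7 cluster, of which Trim30a (35.4), Trim34a (26.9), Trim12c (23.6) and Trim30d (21.6) are among the 7 highest members.

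The main question was which members differed between Trex1-deleted and control macrophages after the same 4-OHT exposure. On day 1 no member passed the threshold of an adjusted p below 0.01 in edgeR's quasi-likelihood test over 15257 genes, nor by DESeq2. The background at this threshold was close to nil as well, with 0.00655% of all genes higher and 0.0131% lower. An unadjusted p below 0.05 was held by 4 of the 46 members, against 308 of all 15257 genes. On day 2, 12 members were higher in FL/FL cells and 4 lower, against 5.69% and 2.48% of all genes. On day 3, 12 were higher and 0 lower (background 6.69% and 5.42%), with no lower member by DESeq2 either. An unadjusted p below 0.05 in either direction was held by 17 members, against 4477 of all 15257 genes. On day 4, 12 were higher and 4 lower (background 9.84% and 11.7%). The higher members exceeded the background share on each of days 2 to 4, whereas the lower ones lay below it on days 3 and 4. The median log2 fold change over all 46 members was -0.06, 0.11 and 0.04 on days 2, 3 and 4.

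With a log2 fold change above 1.5 required as well, no member remained on day 2 (0.498% of all genes), Trim46 remained on day 3 (0.485%), and Trim30b and Trim30c remained on day 4 (1.65%). In all, 13 members were higher on at least 1 day, and 10 of them on each of days 2, 3 and 4: Trim12a, Trim12c, Trim14, Trim21, Trim25, Trim30a, Trim30b, Trim30c, Trim30d and Trim34a. Of 5 members that were lower on at least 1 day, Trim16, Trim28 and Trim37 were lower on days 2 and 4. The shares of all genes called on at least 1 day or on several days were not counted.

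**Figure D2:**
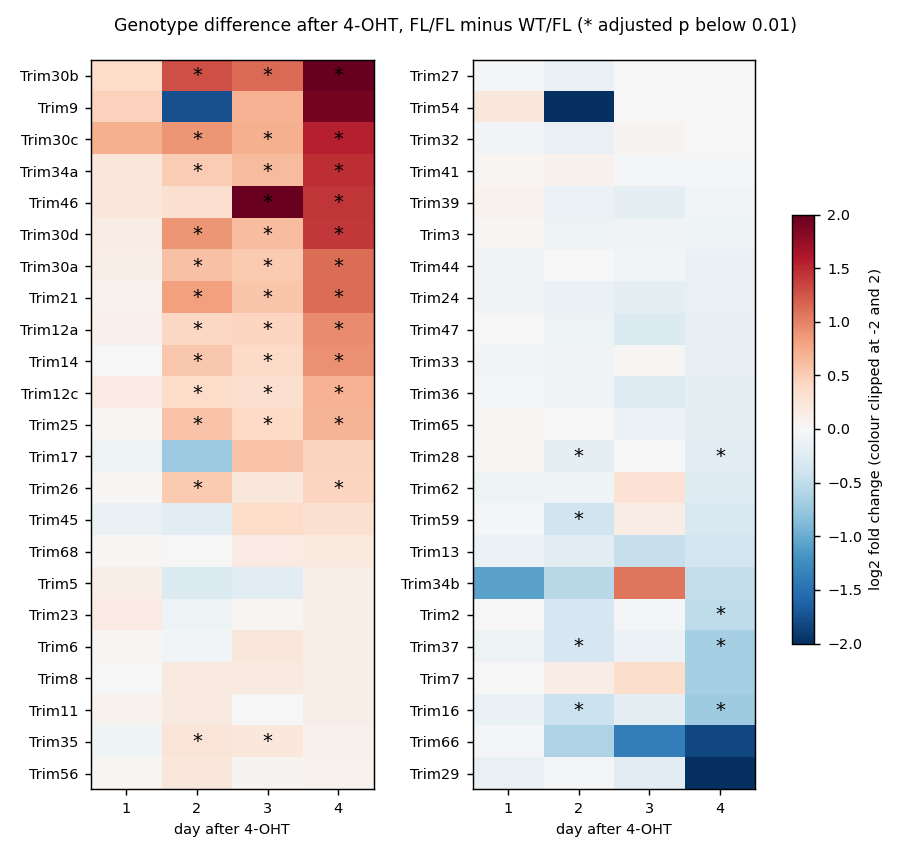
Log2 fold change of 4-OHT FL/FL over 4-OHT WT/FL cells for all 46 members (rows, ordered by day 4) on days 1 to 4, with asterisks where the adjusted p was below 0.01. No asterisk stands on day 1 and 12 of the red ones on each of days 2, 3 and 4; strong colours without an asterisk belong to members with few counts, such as Trim9, Trim54 and Trim29.

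The largest group of responders was a cluster of 10 Trim genes on chromosome 7 (Trim6, Trim34a, Trim5, Trim12a, Trim34b, Trim12c, Trim30b, Trim30c, Trim30a and Trim30d), which lies between positions 103868000 and 104157107 of GRCm39. It holds the mouse relatives of the capsid-binding restriction factor TRIM5α. On each of days 2, 3 and 4, 7 of the 10 were higher in Trex1-deleted cells and none lower, with a median log2 fold change of 0.46, 0.57 and 1.03. Over all genes tested, the medians were -0.01, -0.01 and -0.04. Of all genes, 5.69%, 6.69% and 9.84% were higher and 2.48%, 5.42% and 11.7% lower on these days. With 10 genes, none lower is near the lower shares. The 7 were the same genes on each of these days, and the 3 others were Trim5, Trim6 and Trim34b.

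Within the cluster, Trim30b had the largest called log2 fold change on each of days 2, 3 and 4. Its level was 1.64 and 1.90 CPM in WT/FL and 2.31 and 2.26 CPM in FL/FL 4-OHT libraries on day 1. On day 2 it stood at 14.9 and 10.7 CPM in WT/FL against 31.5 and 30.7 CPM in FL/FL cells, and on day 4 at 3.24 and 3.44 against 18.5 and 17.0 CPM. Both FL/FL libraries were above both controls on all of days 2 to 4. The log2 fold changes of days 2, 3 and 4 were 1.28 ± 0.13 (SE), 1.14 ± 0.13 and 2.41 ± 0.14. Their adjusted p (edgeR) were 4.08e-08, 2.74e-07 and 3.17e-13.

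Trim30c and Trim30d reached their largest differences on day 4. Trim30c was at 14.9 and 15.6 CPM in WT/FL and 43.0 and 46.2 CPM in FL/FL libraries, a log2 fold change of 1.55 ± 0.19. Trim30d was at 78.9 and 96.5 CPM against 228 and 239 CPM, a log2 fold change of 1.41 ± 0.11. Trim30a, which limits NF-κB activation by Toll-like receptors through TAB2 and TAB3, was at 254 and 320 CPM in WT/FL and 595 and 652 CPM in FL/FL cells on day 4. Its log2 fold changes of days 2, 3 and 4 were 0.58, 0.52 and 1.12 ± 0.10. None of these groups overlapped.

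Trim34a, a RING-bearing neighbour of Trim5, was at 51.1 and 59.4 CPM in WT/FL and 156 and 150 CPM in FL/FL libraries on day 4. The log2 fold change was 1.47 ± 0.08 with an adjusted p (edgeR) of 2.55e-13, after 0.52 on day 2 and 0.63 on day 3. Trim12a and Trim12c, close relatives of Trim5, rose less, by 0.94 ± 0.10 and 0.69 ± 0.07 on day 4. Trim12c stood at 74.5 and 84.4 CPM in WT/FL against 127 and 129 CPM in FL/FL cells.

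Trim5 did not pass the test on any day, although the 70 bases around its ISRE core were identical to those of Trim12a. Its level was 18.9 and 17.5 CPM in WT/FL and 15.7 and 14.3 CPM in FL/FL libraries on day 2, and 18.7 and 22.8 against 24.7 and 20.7 CPM on day 4. The log2 fold changes were -0.27 on day 2, -0.21 on day 3 and 0.14 on day 4. Within single libraries, the ratio of Trim12a to Trim5 CPM was 1.97 and 1.91 in WT/FL and 1.86 and 1.91 in FL/FL cells on day 1. On day 2 it was 2.16 and 2.07 against 3.14 and 3.66, on day 3 it was 1.67 and 1.94 against 2.95 and 2.67, and on day 4 it was 1.70 and 1.64 against 2.72 and 3.13. The ratio was higher in both FL/FL libraries than in both controls from day 2 on. The difference between the genes was not tested across all genes, and with 2 libraries against 2 an exact two-sided permutation test cannot go below p = 0.33.

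Trim6, which makes unanchored chains that activate IKKε, was low, at 0.507 to 3.47 CPM over all libraries, and its log2 fold changes of -0.05, 0.22 and 0.13 on days 2 to 4 did not pass the test. Trim34b held 0 to 43 counts per library and passed on no day. The genes of this cluster share sequence, so that the assignment of reads between them carries some uncertainty. The share of each gene's 31-base transcript words that also occur in other genes was 64.9% for Trim34b, 55.2% for Trim5, 50.2% for Trim12c and 50.1% for Trim34a, but 3.62% for Trim30b and 5.69% for Trim30c. When close copies were summed, the 4 Trim30 genes together gave log2 fold changes of 0.68, 0.56 and 1.22 on days 2 to 4, both Trim12 genes 0.37, 0.35 and 0.77, and both Trim34 genes 0.51, 0.63 and 1.46, all with an adjusted p (edgeR) below the threshold. Trim5, whose shared words lie mainly in Trim12c and Trim12a, was not part of any sum. How reads were divided between Trim5 and the Trim12 genes was not tested.

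**Figure D3:**
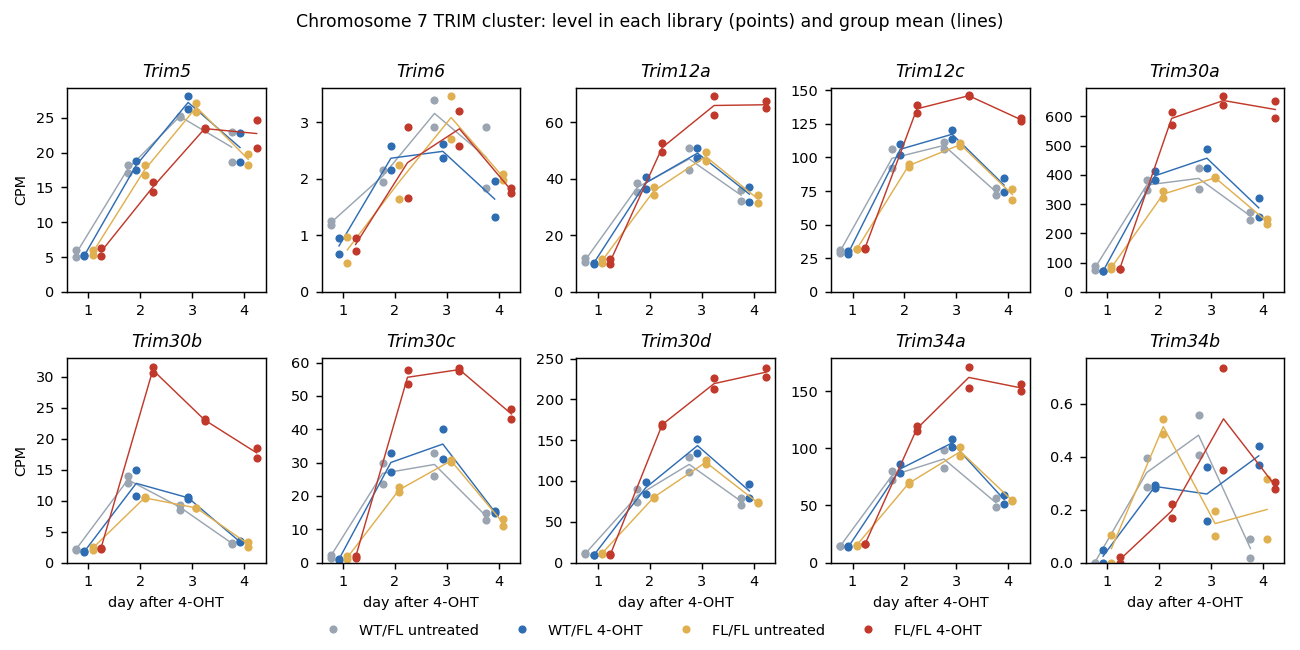
CPM of the 10 cluster genes in each library (points) and group means (lines) by day, for untreated WT/FL (grey), 4-OHT WT/FL (blue), untreated FL/FL (yellow) and 4-OHT FL/FL (red) cells. On day 4 the FL/FL 4-OHT libraries of Trim30a (595 and 652 CPM) stand above all others, unlike those of Trim5 (24.7 and 20.7 CPM).

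Among 20 listed regulators of nucleic acid sensing and NF-κB signalling outside the cluster, 16 were members. Of these, 5 were higher on day 2 (Trim14, Trim21, Trim25, Trim26 and Trim35), 4 on day 3 and 4 on day 4 (5.69%, 6.69% and 9.84% of all genes), and none was lower on any day (2.48%, 5.42% and 11.7% of all genes). The other 11 were called on no day. Without Trim29, which held at most 26 counts, the other 10 (Trim8, Trim13, Trim23, Trim27, Trim32, Trim39, Trim56, Trim62, Trim65 and Trim68) had log2 fold changes between -0.46 and 0.28 on days 2 to 4. The median of the list was -0.01, 0.11 and 0.08 on days 2, 3 and 4. 

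Trim21, a cytosolic antibody receptor and ligase, was at 20.1 and 21.1 CPM in WT/FL and 22.6 and 20.8 CPM in FL/FL 4-OHT libraries on day 1. On day 2 it stood at 73.6 and 67.7 against 122 and 126 CPM, on day 3 at 69.9 and 71.7 against 105 and 102 CPM, and on day 4 at 41.4 and 41.2 against 92.2 and 86.2 CPM. The groups did not overlap from day 2 on. The log2 fold changes were 0.81 ± 0.07, 0.55 ± 0.07 and 1.11 ± 0.07, with adjusted p (edgeR) of 2.99e-09, 1.42e-06 and 1.40e-12. The difference was larger on day 4 although the level in FL/FL cells was lower than on day 2, since the control level was lower too.

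Trim25 rose in all arms with time and further in Trex1-deleted cells, which held 463 and 441 CPM on day 2, 683 and 692 on day 3 and 738 and 752 on day 4. The matched WT/FL libraries held 330 and 278, 519 and 528, and 465 and 462 CPM. The log2 fold changes were 0.57 ± 0.07, 0.39 ± 0.07 and 0.68 ± 0.07. Trim14, a RING-less adaptor that binds MAVS and protects cGAS from degradation, was at 66.0 and 66.7 CPM in WT/FL and 127 and 123 CPM in FL/FL cells on day 4, with log2 fold changes of 0.54, 0.38 and 0.91 on days 2 to 4. Trim26, a ligase linked to TBK1 and IRF3, was higher on day 2 (0.52 ± 0.07) and day 4 (0.43 ± 0.07), and its value on day 3 was 0.23. Trim35, which acts on IRF7 and RIG-I, was higher on day 2 (0.26 ± 0.05) and day 3 (0.20 ± 0.05), and its value on day 4 was 0.09.

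Outside both lists, the only member called higher on any day was Trim46, a microtubule-bundling protein of the axon initial segment. Its levels were low, at 0.857 and 1.16 CPM in WT/FL and 4.59 and 3.33 CPM in FL/FL 4-OHT libraries on day 3. The log2 fold change was 1.97 ± 0.34 on day 3 and 1.43 ± 0.34 on day 4. Against untreated FL/FL cells the day 4 value of 1.12 was not called. Its exons overlap Krtcap2 on the opposite strand, and whether counting used the strand is not given in the sources used here, so that reads from the overlap cannot be told apart. The same holds for the opposite-strand overlaps of other called members, among them Trim28 with Chmp2a, Trim14 with Nans and Trim37 with Ppm1e, and for the same-strand overlap of Trim16 with Fbxw10 under either setting.

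The chromatin regulators of the TIF1 group (Trim24, Trim28, Trim33 and Trim66) were called higher on no day. Trim28, the corepressor that silences retroelements through KRAB zinc finger proteins, was lower on days 2 and 4. It stood at 131 and 135 CPM in WT/FL against 120 and 114 CPM in FL/FL cells on day 2, and at 132 and 128 against 109 and 111 CPM on day 4. These were small log2 fold changes of -0.18 ± 0.05 and -0.23 ± 0.05. Trim24, a nuclear receptor cofactor, and Trim33, which acts on SMAD4, had values of -0.16 and -0.17 on day 4 and were not called. Trim66 held 4 to 40 counts per library and was not called either.

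Of the remaining members, Trim16, Trim37, Trim59 and Trim2 were lower on 1 or more days. Trim16, a RING-less protein of the response to damaged endomembranes, was at 15.7 and 13.6 CPM in WT/FL and 7.81 and 10.2 CPM in FL/FL cells on day 4, a log2 fold change of -0.71 ± 0.12 after -0.43 on day 2. Trim37, which controls centriole assembly, was at 21.1 and 21.3 against 12.8 and 14.0 CPM on day 4, a log2 fold change of -0.66 ± 0.08 after -0.34 on day 2. Trim59 was lower on day 2 (-0.39 ± 0.09), and its value on day 4 was -0.30. Trim2, an NHL-repeat ligase, was lower on day 4 (-0.50 ± 0.12).

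**Figure D4:**
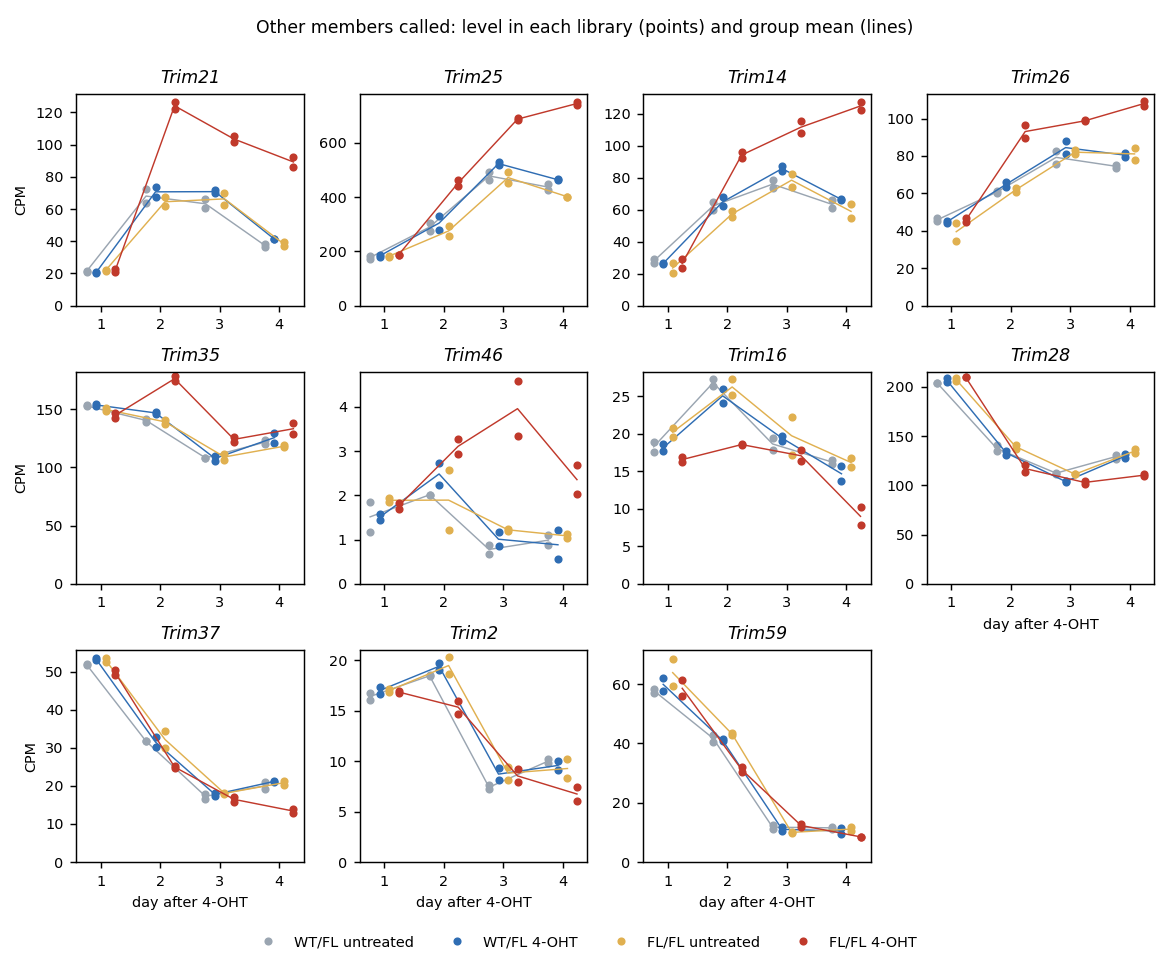
CPM by day in each library (points) and group means (lines) for the 11 called members outside the chromosome 7 cluster, coloured by arm (untreated WT/FL grey, 4-OHT WT/FL blue, untreated FL/FL yellow, 4-OHT FL/FL red). Trim21 and Trim14 separate from day 2 on, while Trim37 and Trim59 fall with time in all arms and the red points lie lowest on day 4.

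The day 4 values were the most stable when 1 of the 4 libraries was left out, with 14 of 16 called values keeping their call in each case, against 7 of 16 on day 2 and 5 of 12 on day 3. The day 4 exceptions were Trim46, whose call was lost without WT/FL 4-OHT replicate 1 or FL/FL 4-OHT replicate 1 (log2 fold changes of 0.96 to 2.08), and Trim2, lost without replicate 2 of either group (-0.66 to -0.36). Trim21, Trim25, Trim30b and Trim34a kept their calls on all of days 2 to 4. Trim14 and Trim30c on day 3, and Trim16 and Trim28 on day 2, lost theirs without any 1 of the 4 libraries, with log2 fold changes of 0.33 to 0.43, 0.54 to 0.90, -0.49 to -0.38 and -0.22 to -0.15. Fewer members were higher on day 2 without WT/FL 4-OHT replicate 2 and on day 3 without WT/FL 4-OHT replicate 1. How many of all genes kept their call in these fits was not counted.

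The control comparisons asked what the floxed genotype gave without 4-OHT and what 4-OHT gave in WT/FL cells. In the latter, 4-OHT comes together with the loss of 1 Trex1 allele, and their effects cannot be told apart. Between untreated FL/FL and untreated WT/FL cells, no member passed the test on any day by edgeR or DESeq2 (0%, 0%, 0% and 0.0655% of all genes on days 1 to 4). The number of members with an unadjusted p below 0.05 was 7, 1, 3 and 3, against 1129, 588, 468 and 2414 of all 15257 genes. On day 1 some members were called lower without FL/FL untreated replicate 1 of that day, but not without replicate 2. How many of all genes were called in those fits was not counted. Between 4-OHT and untreated WT/FL cells, again no member passed by either tool (0.00655%, 0.0918%, 0.341% and 0.216% of all genes). An unadjusted p below 0.05 was held by 2, 0, 8 and 2 members, against 378, 530, 1281 and 1080 of all 15257 genes. For the 18 members called in deleted cells, log2 fold changes ranged from -0.36 to 0.65 in the untreated genotype comparison and from -0.93 to 0.37 in the WT/FL 4-OHT comparison.

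Within FL/FL cells, 4-OHT against untreated libraries gave 0 higher and 0 lower members on day 1 (0% and 0.0131% of all genes), where 6 had an unadjusted p below 0.05. Without FL/FL untreated replicate 1 of that day, 6 members (Trim8, Trim11, Trim26, Trim41, Trim47 and Trim56) were called higher, and without replicate 2 none was. The comparison gave 12 and 4 on day 2 (7.49% and 3.59%), 13 and 2 on day 3 (8.12% and 7.57%), and 12 and 5 on day 4 (10.2% and 11.2%). This comparison shares its FL/FL 4-OHT libraries with the main one. Against both controls, 12, 12 and 11 members were higher and 4, 0 and 4 lower on days 2, 3 and 4. The share of all genes called against both was not counted, and it cannot exceed the share of either comparison. On day 4, Trim30b was 2.59 ± 0.14 higher on the log2 scale, Trim30c 1.90 ± 0.20 and Trim30d 1.67 ± 0.11.

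**Figure D5:**
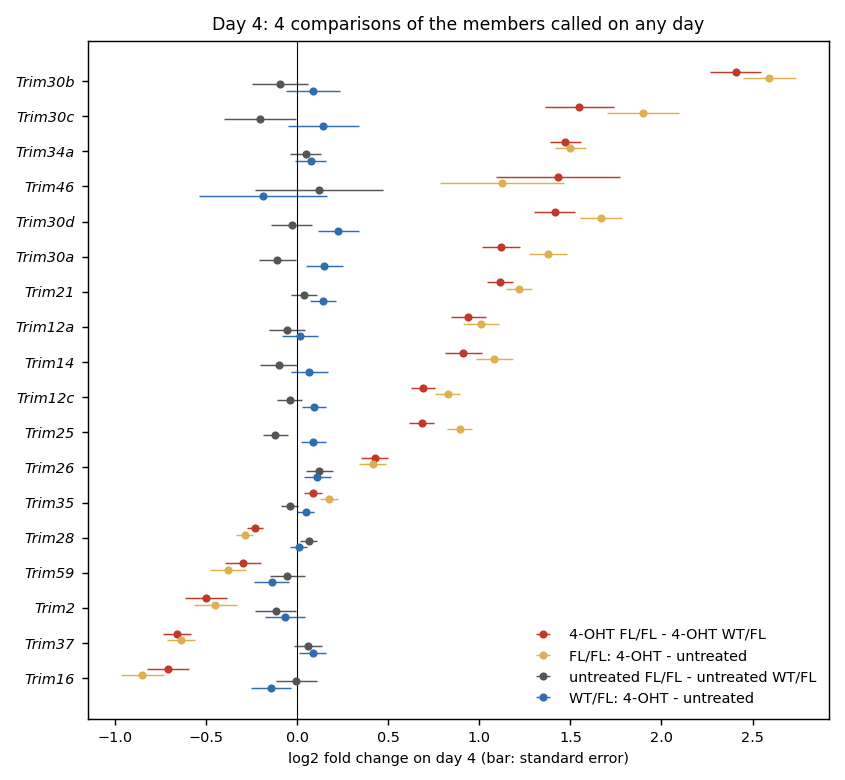
Log2 fold changes on day 4 (points, with bars of 1 standard error) of the 18 members called on any day, in 4 comparisons: 4-OHT FL/FL minus 4-OHT WT/FL (red), FL/FL 4-OHT minus untreated (yellow), untreated FL/FL minus untreated WT/FL (grey) and WT/FL 4-OHT minus untreated (blue). The red and yellow values, which share libraries, reach 2.41 and 2.59 for Trim30b, while for the same gene the grey and blue points lie near 0.

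The interaction of genotype and 4-OHT asked whether the effect of 4-OHT differed between the genotypes. No member passed on day 1 by edgeR, with 4 at an unadjusted p below 0.05 (0.00655% of all genes in either direction). Without FL/FL untreated replicate 1 of that day, 4 members (Trim8, Trim26, Trim41 and Trim47) were called with a positive interaction, and without replicate 2 none was. On day 2, 11 members had a positive interaction and 0 a negative one, on day 3 it was 4 and 0, and on day 4 it was 10 and 3. Of all 15257 genes, 541 were positive and 75 negative on day 2 (4.04% in either direction). On day 3 it was 405 and 305 genes (4.65%), and on day 4 it was 786 and 799 (10.4%). The negative count of day 4 was thus near the background. The 4 of day 3 were Trim21, Trim25, Trim30b and Trim34a. On day 4 the largest values were those of Trim30b (2.50 ± 0.21), Trim30c (1.75 ± 0.28) and Trim30d (1.44 ± 0.16), and the negative ones were those of Trim37 (-0.72 ± 0.11), Trim16 (-0.71 ± 0.16) and Trim28 (-0.30 ± 0.06).

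The genotype difference itself changed between successive days in several members. From day 1 to day 2 it grew in 5, namely Trim30b, Trim21, Trim25, Trim26 and Trim35. It shrank in 0, against 408 of 15257 genes that changed upward and 52 downward (3.02% in either direction). From day 2 to day 3 it changed in none by edgeR, against 0.905% of all genes. At an unadjusted p below 0.05 stood 6 of the 46 members and 2258 of the 15257 genes. From day 3 to day 4 it grew in Trim30b, Trim34a, Trim30d and Trim21 and became more negative in Trim37 (3.7% of all genes).

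Many members changed with time in culture in every arm. In untreated WT/FL cells, 21 members were higher and 7 lower on day 4 than on day 1, against 27.5% and 26.3% of all genes. In 4-OHT WT/FL cells the numbers were 25 and 8 (27.7% and 26.7%), in untreated FL/FL cells 20 and 7 (27.7% and 26.7%, and 21 and 6 or 20 and 7 without replicate 1 or 2 of day 1), and in 4-OHT FL/FL cells 25 and 8 (28.3% and 27.7%). In all 4 arms, 18 members were higher and 6 lower (Trim2, Trim27, Trim28, Trim36, Trim37 and Trim59). The share of all genes called in all 4 arms was not counted, and it cannot exceed that of any single arm. The higher share was above the background in each arm and the lower share below it. Of the 10 genes of the cluster, 8 rose in untreated WT/FL and untreated FL/FL cells and all 10 in the 4-OHT arms.

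In untreated WT/FL cells, the largest increases were those of Trim30c, from 2.39 and 1.46 CPM on day 1 to 12.7 and 15.0 CPM on day 4 (log2 fold change 2.83 ± 0.24), and Trim30d, from 11.9 and 10.2 to 70.6 and 79.6 CPM (2.76 ± 0.13). Trim5 rose as well, from 5.98 and 5.01 to 18.7 and 22.9 CPM (1.91 ± 0.13), whereas it was not called in any genotype comparison. In 4-OHT FL/FL cells the same change was 4.74 ± 0.24 for Trim30c and 4.59 ± 0.14 for Trim30d. The largest decreases in untreated WT/FL cells were those of Trim59, from 58.5 and 57.2 to 11.1 and 11.9 CPM (-2.33 ± 0.09), and Trim37, from 51.8 and 51.9 to 19.1 and 20.9 CPM (-1.38 ± 0.07). Trim54, a muscle protein, held 3 to 21 counts per library on day 1 and 0 in every library on days 3 and 4. The rise with time was not a steady one. In untreated WT/FL cells Trim34a stood at 14.1 and 14.2 CPM on day 1, at 80.5 and 71.9 on day 2, at 82.9 and 98.5 on day 3 and at 48.6 and 56.5 on day 4, and its day 4 level was below that of day 2 in both libraries.

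Partners of these ligases were read in lists of their own. Of 13 E2 conjugating enzymes, 2, 1 and 3 were higher on days 2, 3 and 4 and 0 lower, against 5.69%, 6.69% and 9.84% of all genes higher, so that the day 3 count was near the background. Ube2l6, which also serves ISG15 conjugation, had the largest log2 fold changes, of 1.05 ± 0.09, 0.97 ± 0.09 and 1.90 ± 0.09, Ube2e1 was higher on days 2 and 4 (0.31 and 0.47) and Ube2e3 on day 4 (0.27). Ube2n, the E2 for lysine 63-linked chains, had values of -0.05, -0.14 and -0.01 and was not called. Of 21 tested components of the sensing pathways on which TRIM ligases act, 7, 6 and 8 were higher and 0, 1 and 2 lower. All genes were higher in 5.69%, 6.69% and 9.84% and lower in 2.48%, 5.42% and 11.7% of cases on these days, and the lower counts were near or below those shares.

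The higher ones included the RNA sensors Rigi (0.79, 0.64 and 1.34) and Ifih1 (0.97, 0.67 and 1.41), and on days 2 and 4 the DNA sensor Cgas (0.49 and 0.92). Irf7, the interferon-induced transcription factor, had values of 1.61, 1.31 and 2.38. Rnf135, a further ligase for RIG-I that carries a RING but is not named Trim, was higher by 0.61, 0.34 and 0.75. The adaptor gene Mavs, the kinase gene Tbk1 and Sting1 were not called on any day. Traf3 was lower on day 3 and day 4 (-0.27 and -0.36) and Ikbkg, which encodes NEMO, on day 4 (-0.74). Among TRIM proteins under other names, 4 of 8 were tested. Pml, the scaffold of nuclear bodies, was higher on days 2, 3 and 4 (0.63, 0.47 and 0.90), as was Mid1, a microtubule-associated ligase (0.89, 0.80 and 0.92), and Mefv and Mid2 were not called.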

How the data were processed

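RNA of 32 libraries from cultured mouse bone marrow-derived macrophages was sequenced. The authors demultiplexed reads, checked them with FastQC (11.9 per the labels), quantified transcripts with Salmon (version not given in the sources used here) and summed them per gene on GRCm39 with tximport. The deposited estimated counts, whole numbers in the file, were used as they stood. Library totals of 35120505 to 63760884 and 2 libraries per group set the precision.

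The members and lists were chosen with earlier results of these data known. Identifiers were matched to GENCODE vM39 for 51048 of 54281 rows, and unmatched rows held 0.32% of counts. Counts were filtered with edgeR's filterByExpr (minimum count 10, 15257 genes kept, all 46 members among them), scaled by TMM and fitted with 16 group means by the robust quasi-likelihood test of edgeR 4.0.16 in R 4.3.3, with Benjamini-Hochberg adjustment over all genes tested. A call was an adjusted p below 0.01. CPM values are TMM-scaled, and standard errors were the absolute log2 fold change over the square root of F. Named members were those past a log2 fold change of 1.5, on each day the 3 largest called increases and decreases without overlap, every tested member of the chromosome 7, sensing and TIF1 lists, the 3 highest per length, and the 2 largest called increases and decreases with time in untreated WT/FL cells or with 4-OHT in WT/FL cells. Trim9, Trim17, Trim36, Trim45, Trim54 and the partners stood outside that rule and were picked with their values in view. Alternatives were DESeq2 1.42.0, other scalings and filters, subsets of libraries and leaving out each library. The fit was tested on data simulated for the day 2 comparison with 1 spread for all genes and no change between days. Changes were placed only in genes with an expected count above 50. The fit called 34 of 100 changes of 0.5 on the log2 scale, 100 of 100 changes of 1.5 and 0 of 13744 unchanged genes. These rates do not cover changes in members with fewer counts. Replicate numbers are accession order only. Libraries of a group differed by more than sampling noise (a chi-square of their counts gave at least 8.55 per degree of freedom, and most in untreated FL/FL cells of day 1). Promoters and motif cores were read from RefSeq windows of GRCm38.p6, and gene positions from GRCm39. No protein sequence was used here.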

Additional observations from a re-analysis of the deposited data

Results flagged for a closer look

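The difference between 4-OHT FL/FL and 4-OHT WT/FL cells changed from 1 day to the next in several members by a test of the change itself (edgeR, adjusted over all genes). From day 1 to day 2 the log2 fold change grew by 0.92 in Trim30b (adjusted p 0.0051), 0.74 in Trim21 (2.6e-05), 0.54 in Trim25 (0.00072), 0.49 in Trim26 (0.0035) and 0.35 in Trim35 (0.0013).

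From day 3 to day 4 it grew by 1.27 in Trim30b (adjusted p by edgeR 4.1e-05), 0.84 in Trim34a (1.8e-05), 0.80 in Trim30d (0.0024) and 0.57 in Trim21 (0.00032). In Trim37 it changed by -0.55 (0.0012). Trim30b and Trim21 were the members called in both intervals. In both genes the WT/FL 4-OHT level was lower on day 4 than on day 3 in each library, from 10.7 and 10.3 to 3.24 and 3.44 CPM for Trim30b and from 69.9 and 71.7 to 41.4 and 41.2 CPM for Trim21.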

How the results depend on the processing

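Of 44 called values of single members, none reversed under any alternative. All 44 kept their call with RLE or upper-quartile scaling, DESeq2 or a minimum count of 50. An adjusted p below 0.05 is looser than the threshold of a call and could not remove any. Of the 44, 16 lost their call by the interaction and 6 with the 4 libraries of the day alone. With the 16 4-OHT libraries alone 2 were lost, with no filter 2, and against untreated FL/FL cells 1. Requiring a log2 fold change above 1.5 removed 41. RLE or upper-quartile factors in place of TMM shifted the 4-OHT genotype comparisons by at most 0.0193 on the log2 scale. This shift was taken from the mean scaling factors of the groups. With the log2 fold change above 1.5 required, higher members numbered 0, 1 and 2 on days 2, 3 and 4, lower members 0 on days 2 and 4, and members changed from day 1 to day 4 numbered 7, 10, 7 and 16 in WT/FL untreated, WT/FL 4-OHT, FL/FL untreated and FL/FL 4-OHT cells. With the 4 libraries of the day alone, 2 members were lower on day 2 and 2 on day 4. By the interaction, 0 were lower on day 2 and 4 higher on day 3. Lower members on day 3, 0 in the main test, numbered 1 with no filter, 1 with the 16 4-OHT libraries alone, 1 at an adjusted p below 0.05 and 2 against untreated FL/FL cells. The cause of these shifts was not tested.

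Leaving out 1 library, with the lone library assumed to vary like other groups, gave 7 to 12 higher members on day 2, 5 to 10 on day 3 and 0 to 1 lower members on day 2. In untreated cells of day 1 it gave 0 to 5 called members. Leaving out either untreated FL/FL library of day 1, an alternative chosen after seeing the data, gave 0 to 6 called members for 4-OHT against untreated FL/FL cells and 0 to 4 for the interaction on that day. The share of all genes called in these fits was not counted. No paired analysis was possible because the labels give no replicate numbers. With 2 libraries per group, a p that misses the threshold does not show equal levels, and members with few counts (Trim9, Trim17, Trim29, Trim34b, Trim54) could be resolved least.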
